A study of Mus musculus with 6 samples.

Results

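The data described here are the ribosome densities of 48 chaperone mRNAs, chosen by name from the 18437 mRNAs listed for 6 mouse Ribo-seq libraries. They fall into 15 genes of the endoplasmic reticulum (ER), 14 cytosolic genes, 4 mitochondrial genes, 7 small heat shock proteins and the 8 subunits of the CCT ring. Ribo-seq sequences the mRNA fragments that ribosomes protect. The tissues came from WT C57BL/6J mice, 4 weeks old and without treatment, and a single library was made from each of these: heart, lung, brain, kidney, colon, small intestine. Replicates were thus lacking and tissues could not be tested against each other, so differences are given as sizes with intervals for counting error only.

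Chaperones bind unfolded or partly folded proteins and help them to reach or keep their shape. In the ER, Hspa5 (BiP) and Hsp90b1 (Grp94) hold secreted and membrane proteins while calnexin, calreticulin and the protein disulfide isomerases attend to sugars and disulfide bonds. Cytosolic Hsp70 and Hsp90 proteins work with J-domain and Hsp110 partners, mitochondria use their own Hsp70 and the Hsp60-Hsp10 chamber, small heat shock proteins hold unfolding proteins without ATP, and the CCT ring folds actin and tubulin. A fall in ER folding capacity is sensed by Atf6, Ern1 and Eif2ak3, and unfolded protein in the cytosol by Hsf1.

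Reads on coding sequences (CDSs) numbered 4504853 in the library labelled colon, which was the shallowest, and up to 10635031 in that labelled brain. Values are RPKM, which divide the reads on a CDS by its length and by the reads on all CDSs, so they can be compared between genes. Tissue markers matched the label in 2 libraries, heart and lung, and went against it in the other 4. All 4 brain markers (Snap25, Syt1, Gfap and Mbp) were highest in the library labelled small intestine, all 4 small intestine markers in that labelled brain, all 4 kidney markers in that labelled colon, and all 4 colon markers in that labelled kidney. Libraries are therefore named by their label throughout, and no tissue is read from the labels brain, colon, kidney or small intestine. A single mRNA, Kri1, held 0.400% of reads in lung, 14.1% in the small intestine label and 22.1% in the kidney label. This lowers the RPKM of every other mRNA there, and median-of-ratios scaling would shift all log2 values by between -0.48 in lung and 0.19 in the small intestine label. These are whole tissues, in which fewer cells of a type and less RNA per cell cannot be told apart, and the density reflects mRNA level and ribosomes per mRNA together.

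Promoter sequences of the members are shown first. The ER stress response element, a site known to be used by Atf6 with NF-Y, was searched as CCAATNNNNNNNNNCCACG on both strands in RefSeq promoters (250 bases before to 50 after the start, GRCm38.p6). A promoter was found for 39 of the 48 members. It was missing for Cct4, Cryab, Hsp90aa1, Hsp90ab1, Hspa8, Hspa9, Hspb2, Hyou1 and Manf. The element was matched in 7 of the 13 ER genes with a promoter and in 0 of the 26 other members, against 37 of 27025 genes (0.137%) overall. Each window is written on the strand of its gene, and capitals mark the fixed bases of the element.
Hspa5, chr2:34772020-34772048, plus strand: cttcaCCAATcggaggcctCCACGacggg
Hsp90b1, distal site, chr10:86705633-86705661, minus strand: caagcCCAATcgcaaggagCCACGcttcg
Hsp90b1, proximal site, chr10:86705528-86705556, minus strand: gagtgCGTGGtgaggcacgATTGGtgagt
Calr, chr8:84847070-84847098, minus strand: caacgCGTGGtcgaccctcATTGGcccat
Canx, chr11:50325795-50325823, minus strand: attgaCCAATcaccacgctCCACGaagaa
Pdia6, chr12:17266486-17266514, plus strand: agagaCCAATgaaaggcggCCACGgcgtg
Dnajc3, chr14:118937822-118937850, plus strand: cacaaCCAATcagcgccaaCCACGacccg
Creld2, chr15:88819515-88819543, plus strand: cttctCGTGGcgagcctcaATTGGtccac

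The element lay between 65 and 212 bases before the start in these genes. In Calr, Creld2 and the proximal site of Hsp90b1 it ran on the opposite strand. A match is a description of the letters and not a site shown to be used. The heat shock element, known as the binding site of Hsf1, was searched as GAANNTTCNNGAA on both strands. It was matched in Hsph1, Hspd1 and Hspe1 among the 39 members and in 179 of 27025 genes (0.662%). Hspd1 and Hspe1, which encode the chamber and lid of the mitochondrial chaperonin, are transcribed in opposite directions. Hspd1 has a start 95 bases and another 216 bases from that of Hspe1. The matches lie in the promoters of Hspe1 and of the latter Hspd1 start. These matches overlap each other and are written on the plus strand, that of Hspe1, with the fixed bases in capitals.
Hspd1 and Hspe1, first match, chr1:55088051-55088079: acggtccgTTCtaGAAccTTCcggaaggc
Hspd1 and Hspe1, second match, chr1:55088056-55088084: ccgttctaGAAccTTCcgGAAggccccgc

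The 48 mRNAs together took between 2.09% of CDS reads in the libraries labelled kidney and heart and 2.69% in that labelled colon. In the heart library the share was 2.09% (95% Wilson interval 2.08% to 2.10%), close to that of the library labelled kidney, but its make-up differed. ER members took 0.719% of the reads in heart and between 1.26% and 1.75% in the other 5 libraries. Small heat shock proteins took 0.527% in heart and between 0.00671% and 0.0592% in the other 5. Cryab alone held 16.8% of the chaperone reads of the heart library, where it was the most read of the 48.

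**Figure D1:**
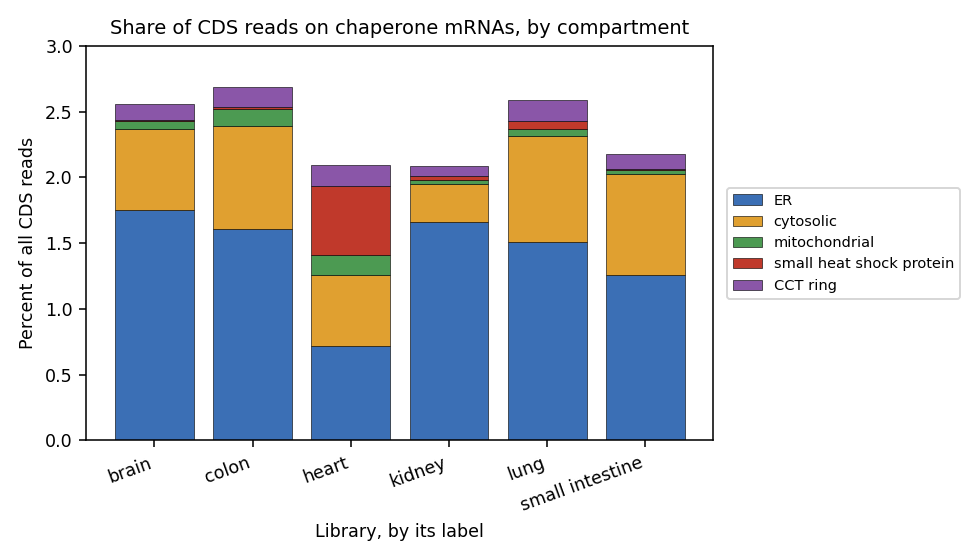
Percent of all CDS reads (vertical axis) on the 48 chaperone mRNAs in each library, named by its label, stacked by compartment. The heart bar has the smallest ER part, 0.719%, and the only small heat shock protein part above 0.1%, at 0.527%.

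To describe how evenly each mRNA was covered, the range of log2(RPKM + 1) over the 6 libraries was taken. Of the 47 members that passed a filter of a mean of at least 1 RPKM, which left out Hspa1a, 27 had a range of at least 4-fold, against 81.3% of all 13521 mRNAs that passed. The median range of the members was 2.04 on the log2 scale and that of all mRNAs 3.19. Among the 1617 mRNAs with a median of at least 50 RPKM, 12 of 29 members reached 4-fold, against 67.4%, with median log2 ranges of 1.78 and 2.62. The compartments differed in this respect. At least 4-fold was reached by all 7 small heat shock proteins, all 4 mitochondrial members, 10 of 13 cytosolic members, 5 of 15 ER members and 1 of 8 CCT subunits. The 10 cytosolic members include Hspa1b, which had reads in lung and in the library labelled colon alone. Without the heart library the ER count was 2, and without the reads on Kri1 it was 9.

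**Figure D2:**
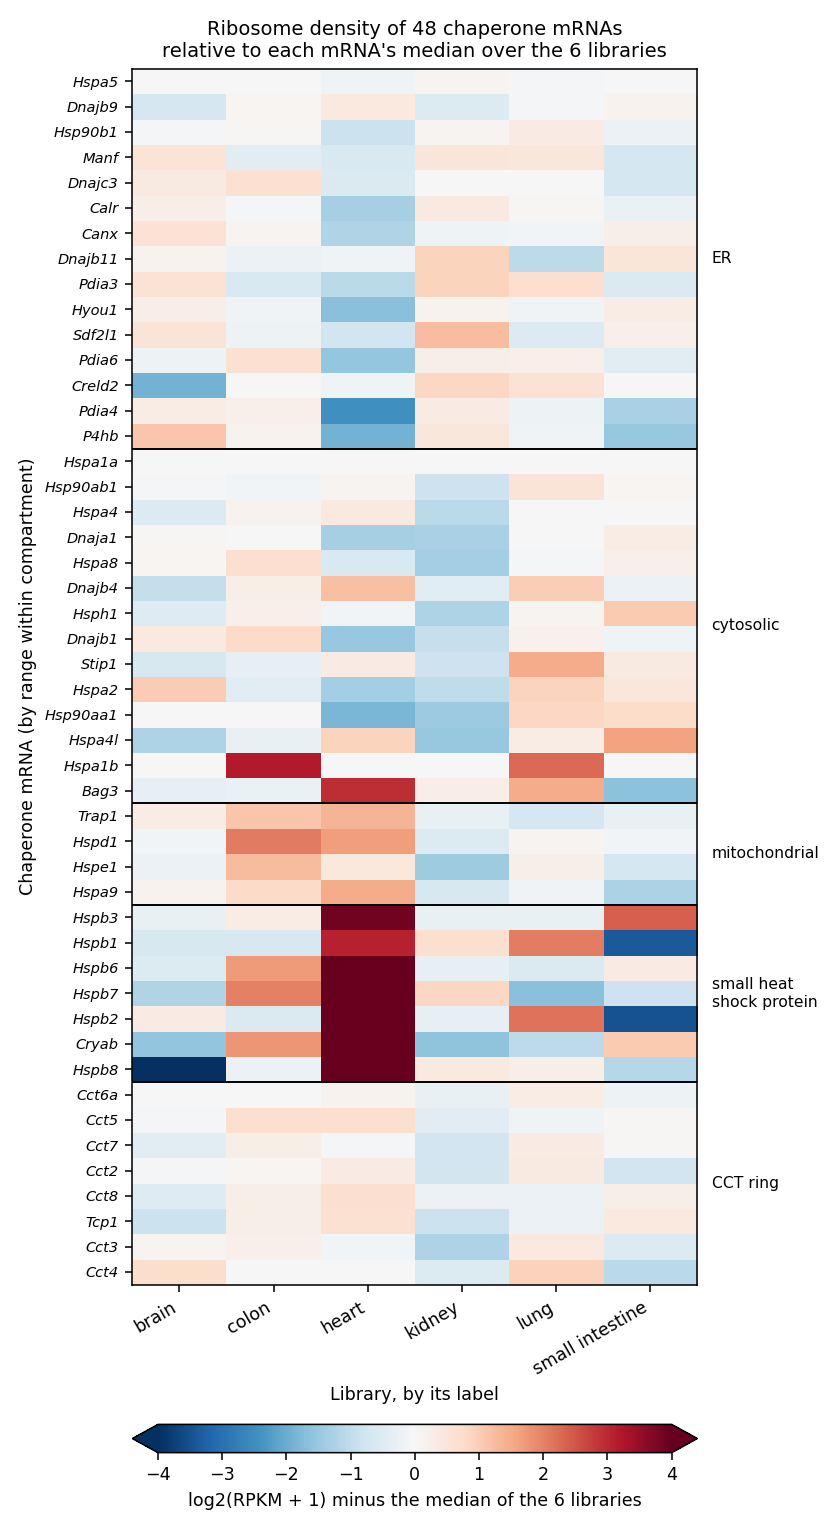
log2(RPKM + 1) of each chaperone mRNA minus its median over the 6 libraries (colour), with libraries in columns by label and mRNAs in rows by compartment and range. Heart is dark red in all 7 small heat shock proteins and blue in most ER rows, and Hspa5 is nearly white throughout.

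Counts past 2-fold from the median of the other 5 libraries were spread over all labels. In heart 13 members lay at least 2-fold above and 12 below, against 20.1% of all mRNAs in either direction, and heart was the highest library for 15 and the lowest for 14 of the 47, against 12.8% and 12.0%. In the library labelled kidney 5 lay above and 13 below, against 19.3% and 17.6%, and in lung 8 and 3, against 31.5% and 19.8%. The library labelled colon had 7 above and 2 below (23.2% and 19.2% of all mRNAs) and was the highest for 8 and the lowest for 0 (15.8% and 14.9%). Hspa1b is among those above in lung and in the library labelled colon, the only libraries where it had reads. That labelled brain had 3 above and 8 below (22.6% and 26.1%) and was the highest for 4 and the lowest for 8 (16.1% and 32.5%). These 8 include Hspb3 and Hspa1b, which had 0 reads in other libraries as well. Each tie for the lowest value was counted in a single library, for these members that labelled brain. Such ties can raise the 32.5% and lower the counts and shares given as lowest for the other labels, here and below. That labelled small intestine had 4 above and 11 below (27.8% and 22.6%) and was likewise the highest for 4 and the lowest for 8 (21.5% and 15.7%). Lung was the highest for 9 (26.3%) and the lowest for 4 (13.1%), and the library labelled kidney the highest for 7 (7.51%) and the lowest for 13 (11.8%).

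The ER members were the most abundant compartment and were low in heart. Their median log2 ratio to the median of the other 5 libraries was -1.06 there, against 0.00 for all mRNAs. Heart was the lowest library for 10 of the 15, against 12.0% of all mRNAs, and at least 2-fold below the median of the other 5 for 8, against 20.1%. Under median-of-ratios scaling heart was the lowest for 8 and at least 2-fold below for 8, the latter against 16.7% of all mRNAs. Without the reads on Kri1 these counts were 12 and 9, the latter against 22.7%. Against the lung library alone, the other library whose markers matched its label, 9 of the 15 were at least 2-fold lower in heart. No share of all mRNAs was taken for this comparison. Median-of-ratios scaling would shift log2 values by 0.15 in heart and -0.48 in lung, which narrows the gap, and the count was not recomputed under it.

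Hspa5, the ER Hsp70, had the narrowest range of the ER members. It lies at chr2:34661982-34668880 on the plus strand (GRCm39) and had 1416 RPKM in the library labelled brain, 1394 in colon, 1254 in heart, 1502 in kidney, 1343 in lung and 1430 in small intestine. Its highest and lowest libraries differed by 1.20-fold, and 0 of the 1617 mRNAs with a median of at least 50 RPKM had a smaller range. The intervals of the brain (1400 to 1433) and small intestine (1411 to 1449) labels overlapped, while that of heart (1236 to 1271) lay below all others. This evenness depended on the scaling. Without the reads on Kri1 the difference was 1.52-fold and 11 of 1758 mRNAs had a smaller range, and under median-of-ratios scaling it was 1.74-fold, lung was the lowest library, and 28 of 1582 had a smaller range.

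Among the ER members the isomerases P4hb and Pdia4 had the widest ranges on the log2(RPKM + 1) scale, 3.00 and 2.79, followed by Creld2 at 2.71. P4hb (protein disulfide isomerase) had 1777 RPKM in the library labelled brain, 913 in colon, 221 in heart, 1144 in kidney, 755 in lung and 292 in small intestine. Pdia4 (ERp72) had 445, 425, 65.5, 459, 313 and 149 RPKM in the same order. Pdia6 had 1537, 2719, 605, 2096, 2062 and 1323 RPKM. All 3 were lowest in heart, where P4hb was 8.03-fold, Pdia4 7.01-fold and Pdia6 4.49-fold below its highest library. All 3 were next lowest in the library labelled small intestine, the one with brain markers. Ratios between members within a library do not depend on the read total. P4hb over Hspa5 was 0.177 (95% exact interval 0.170 to 0.184) in heart and 0.204 (0.197 to 0.212) in the library labelled small intestine, and lay between 0.562 and 1.25 in the other 4. Hsp90b1, the ER Hsp90, over Hspa5 was 0.382 in heart and between 0.516 and 0.807 elsewhere.

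Calnexin and calreticulin, the lectin chaperones that hold glycoproteins, were also lowest in heart. Canx had 566 RPKM there and between 1147 and 1943 in the other libraries, and Calr had 574 against 1194 to 1876. Hyou1, an Hsp110-type partner of Hspa5, had 79.9 RPKM in heart and between 232 and 317 elsewhere. Pdia3, the isomerase that works with these lectins, had 60.3 RPKM in heart, with 82.6 in the library labelled colon as the next lowest and 239 in that labelled kidney as the highest.

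Members that are induced by ER stress or act as co-chaperones did not follow 1 pattern. Dnajb9 (ERdj4), a J-domain partner of Hspa5, was the single ER member highest in heart, with 57.9 RPKM in the library labelled brain, 97.3 in colon, 122 in heart, 63.2 in kidney, 87.6 in lung and 101 in small intestine. Creld2, an ER protein induced by stress, had 4.12, 18.2, 15.9, 32.4, 27.4 and 17.7 RPKM in that order. It was lowest in the library labelled brain, from 46 reads, and not in heart. Dnajb11 (ERdj3) was lowest in lung at 17.7 RPKM, while Dnajc3, an inhibitor of Eif2ak3, and Manf, a partner of Hspa5, were lowest in the library labelled small intestine at 40.7 and 77.2 RPKM. Sdf2l1, which binds Dnajb11, ran from 12.3 RPKM in heart to 53.5 in the library labelled kidney.

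**Figure D3:**
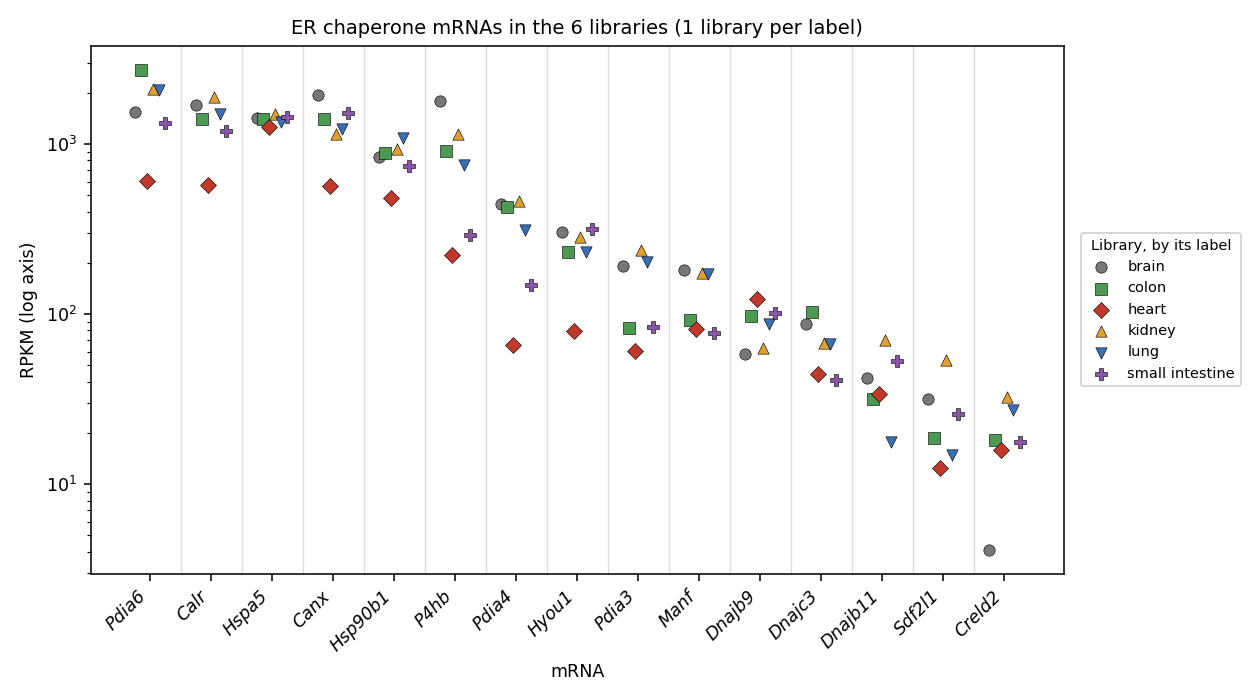
RPKM on a log axis of the 15 ER members, ordered by median, with 1 point per library. The heart diamond is the lowest point of 10 mRNAs, sits above the others for Dnajb9, and lies close to the rest for Hspa5, where all 6 points are between 1254 and 1502 RPKM.

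The library labelled kidney was the highest for 7 of the 15 ER members, against 7.51% of all mRNAs, and at least 2-fold above the median of the other 5 for 3, against 19.3%. That second count was 6 under median-of-ratios scaling, against 22.4% of all mRNAs, and 5 without the reads on Kri1, against 24.0%. The members highest there were Hspa5, Calr, Pdia3, Pdia4, Dnajb11, Sdf2l1 and Creld2. All 5 goblet cell markers (Fcgbp, Clca1, Agr2, Tff3 and Spink4), which mark mucus-secreting cells, were also highest in that library, with a summed level of 14357 RPKM against 11.1 to 5779 in the other 5. Of the 3 plasma cell markers listed, 0 were highest there, and their summed level was 24.7 RPKM against 1.25 to 109. The part of these cells in the ER values was not tested. Heart was the lowest library for 5 of the 7 ER members with the stress element, and for 4 of the 6 with a promoter but without the element. The share of all mRNAs lowest in heart was 12.0%. Heart was at least 2-fold below the median of the other 5 for 3 in each list, against 20.1% of all mRNAs. Of the 2 ER members without a promoter, Hyou1 and Manf, heart was the lowest for 1 and at least 2-fold below for 2.

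A wider list of 14 ER folding and degradation partners included the oxidases Ero1a and Ero1b and the retrotranslocation proteins Sel1l and Derl1. All 14 lay below the median of the other 5 in heart, against 6695 of all 13521 mRNAs. Of the 14, 9 did so by at least 2-fold, against 20.1% of all mRNAs. Under median-of-ratios scaling 6 were at least 2-fold below, against 16.7%. The library labelled kidney was the highest for 8 of them, against 7.51%. The widest ranges were those of Pdia5, another isomerase, from 1.94 RPKM in the library labelled small intestine to 123 in that labelled kidney, and of Edem1, a mannosidase-like protein of ER degradation, from 0.567 in that labelled colon to 16.0 in that labelled kidney. The 9 stress sensors and regulators had another order, with 6 of the 9 highest in lung, against 26.3% of all mRNAs, and 5 of the 9 at least 2-fold above the median there, against 31.5%. Both counts were 3 under median-of-ratios scaling, the second against 21.0% of all mRNAs. Of these, Creb3l2, a membrane-bound transcription factor, ran from 8.62 RPKM in the library labelled small intestine to 250.4 in lung. Its relative Creb3l1 was highest in the library labelled kidney at 32.3 RPKM and had 0 reads in lung.

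The small heat shock proteins stood apart in heart. All 7 were highest there, against 12.8% of all mRNAs, and all 7 were at least 2-fold above the median of the other 5, against 20.1%. The second count was 7 under each of the scalings and against the lung library alone. Their median log2 ratio in heart was 5.12.

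Cryab (αB-crystallin) is a small heat shock protein that holds desmin and sarcomere proteins in muscle. It had 13.6 RPKM in the library labelled brain, 146 in colon, 6684 in heart, 13.1 in kidney, 20.2 in lung and 87.7 in small intestine. In heart it ranked 17 among all mRNAs by RPKM, and the level was 45.7-fold above that of the next library, labelled colon. Hspb1 (Hsp25 in mouse) was spread more widely, with 133, 132, 1740, 320, 861 and 19.2 RPKM in the same order of libraries. Heart exceeded lung by 2.02-fold for Hspb1, the smallest gap to the next library of the 7. The order within a library also changed, since Cryab over Hspb1 was 3.84 (95% exact interval 3.75 to 3.93) in heart and 0.0235 (0.0186 to 0.0292) in lung.

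Hspb8, which works with the co-chaperone Bag3 in removing damaged sarcomere proteins, had 17.7 RPKM in the library labelled colon, 650 in heart, 27.8 in kidney, 24.4 in lung and 8.90 in small intestine. It had 0 reads in the library labelled brain, where 3 reads would give 0.480 RPKM. Hspb7, the cardiovascular small heat shock protein, had 0.371 RPKM from 2 reads in the library labelled brain, 11.8 in colon, 133 in heart, 4.68 in kidney, 0 reads in lung and 0.774 from 3 reads in small intestine. Heart was therefore above the next library by 23.4-fold for Hspb8 and 11.3-fold for Hspb7.

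Hspb2, a partner of Hspb3 in muscle, had 13.1 RPKM in the library labelled brain, 6.50 in colon, 230.5 in heart, 7.97 in kidney, 49.3 in lung and 0 reads in small intestine. Hspb3 was the scarcest, with 16.7 RPKM in heart from 63 reads, 5.38 in the library labelled small intestine from 19 reads, 1 read in that labelled colon, and 0 reads in the remaining 3. Hspb6 (Hsp20) had 186 RPKM in heart and between 0.532 and 6.39 elsewhere, from 2 to 14 reads. Cryab and Hspb2 overlap on opposite strands of chromosome 9 in the annotation, yet in the library labelled small intestine Cryab had 352 reads and Hspb2 had 0.

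**Figure D4:**
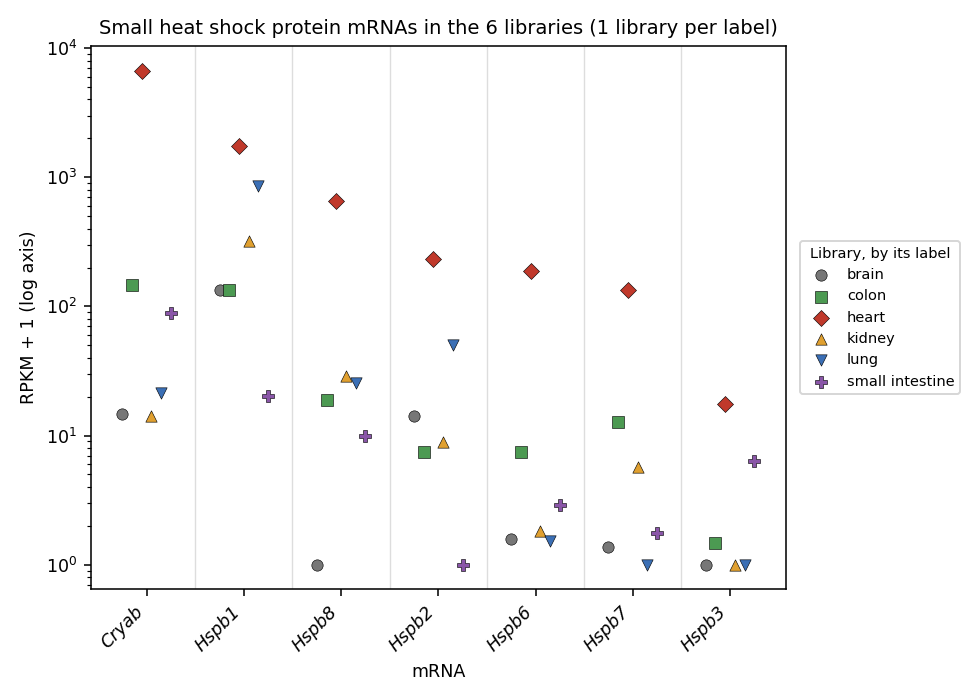
RPKM + 1 on a log axis of the 7 small heat shock protein mRNAs, ordered by their highest value, with 1 point per library and points at 1 for libraries with 0 reads. Heart is the top point of every mRNA, and lung comes closest to it for Hspb1, at 861 against 1740 RPKM.

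Muscle markers were read beside these values. The heart markers Myh6, Actc1, Tnnt2 and Nppa summed to 33405 RPKM in heart, 485 in lung, 278 in the library labelled colon and 12.1 to 40.5 in the rest. The smooth muscle markers Myh11, Acta2, Tagln, Cnn1 and Des followed another order. Their sum was 4008 RPKM in the library labelled kidney, 3039 in that labelled brain and 1320 in heart. Des was an exception, with 738 RPKM in heart, 173 under the kidney label and 80.7 under the brain label. The other 4 were highest under the kidney label. Summed RPKM of the skeletal muscle markers Ckm, Acta1, Myh4, Myh1 and Mylpf was 2311 in heart, of which Ckm held 2225, and at most 40.4 elsewhere. Myh4 and Mylpf were instead highest in lung, at 1.36 and 21.4 RPKM, against 0.042 and 1.21 in heart. The libraries with the most smooth muscle signal, labelled kidney and brain, had 320 and 133 RPKM of Hspb1 and 13.1 and 13.6 of Cryab. The part of each muscle type in the values was not tested.

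Among cytosolic members, Hspa8, the constitutive Hsp70, and Hsp90ab1, the constitutive Hsp90, were the most abundant. Hspa8 had 1453 RPKM in the library labelled brain, 2181 in colon, 904 in heart, 539 in kidney, 1301 in lung and 1569 in small intestine. Hsp90ab1 had 837, 811, 937, 491, 1266 and 918 RPKM in that order. The inducible Hsp90aa1 had 396, 393, 111, 144, 696 and 664 RPKM and varied more than its paralog. Hsp90aa1 over Hsp90ab1 was 0.118 (95% exact interval 0.113 to 0.124) in heart, 0.294 (0.281 to 0.308) in the library labelled kidney and 0.723 (0.705 to 0.741) in that labelled small intestine, with the other 3 between 0.473 and 0.550. Of the 28-base positions of Hsp90aa1, 0.273% are shared with Hsp90ab1, so their reads could be told apart.

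The library labelled kidney was the lowest for 6 of the 13 cytosolic members that passed the filter, against 11.8% of all mRNAs, and at least 2-fold below the median of the other 5 for 9, against 17.6%. Without the reads on Kri1, which took 22.1% of that library, the counts were 4 and 5, the latter against 12.7% of all mRNAs. Under median-of-ratios scaling they were 5 and 6, the latter against 13.4%. Hspa8 over Hspa5, which does not depend on the total, was 0.359 (0.350 to 0.368) there and between 0.721 and 1.56 in the other libraries. Lung was at least 2-fold above the median for 5 of the 13, Hspa1b among them, against 31.5%. Under both of those scalings it was so for 4, against 28.5% without the reads on Kri1 and 21.0% with median-of-ratios scaling.

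The Hsp110 proteins Hspa4, Hspa4l and Hsph1, which exchange the nucleotide of Hsp70, were distributed unequally. Hspa4l had 11.1 RPKM in the library labelled brain, 22.1 in colon, 51.3 in heart, 8.86 in kidney, 33.8 in lung and 85.9 in small intestine. Its paralog Hspa4 ran from 36.1 in the library labelled kidney to 102 in heart. The library labelled small intestine, with brain markers, was the single one where Hspa4l exceeded Hspa4, at a ratio of 1.10 (1.02 to 1.18), against 0.207 to 0.504 in the others. Hsph1 was also highest there, at 84.8 RPKM, against 16.8 to 47.0.

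J-domain proteins and adaptors of the cytosol were found at both ends of the order in heart. Bag3, the co-chaperone that joins Hsp70 to small heat shock proteins, had 11.3 RPKM in the library labelled brain, 11.9 in colon, 118 in heart, 17.5 in kidney, 42.5 in lung and 3.93 in small intestine. It was 2.78-fold higher in heart than in lung and had the widest range of the cytosolic members, 4.60 on the log2 scale. Dnajb4 was highest in heart as well, at 513 RPKM, with 444 in lung, whereas its relative Dnajb1 was lowest there, at 23.6 RPKM, against 36.8 to 118 elsewhere. Dnaja1 ran from 40.4 RPKM in heart to 126 in the library labelled small intestine. Stip1, which joins Hsp70 to Hsp90, was highest in lung at 63.5 RPKM, and Hspa2, an Hsp70 best known from testis, in the library labelled brain at 39.6 RPKM.

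The 13 genes of the Hsf1 axis and further co-chaperones included 4 that were highest in heart, against 12.8% of all mRNAs, and 5 in the library labelled colon, against 15.8%. Hsf2, a second heat shock factor, ran from 0 reads in the library labelled brain to 11.5 RPKM in heart. Fkbp4, an Hsp90 co-chaperone, ran from 120 RPKM in the library labelled small intestine to 741 in that labelled colon.

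The heat-inducible pair Hspa1a and Hspa1b gave few reads. Hspa1a had 0 reads in all 6 libraries, where 3 reads would give between 0.147 and 0.346 RPKM. Hspa1b had 8.07 RPKM from 70 reads in the library labelled colon, 3.76 from 56 reads in lung, and 0 reads in the other 4. It passed the filter only through these reads, which also place it in the counts above the median and of wide range. The 2 CDSs lie on the minus strand of chromosome 17, Hspa1b at chr17:35175412-35178214 and Hspa1a at chr17:35188166-35191132 (GRCm39). They are 99.6% identical, with 8 differing bases of 1923 aligned, and 7.96% of the 28-base positions of Hspa1a and 10.5% of those of Hspa1b are unique among mRNAs. Since multi-mapped reads were removed, the values cover these positions only and understate the pair. A pair of the differences is shown, as A156G and T795G, with the base of Hspa1a first, positions counted from 1 at the start codon, and the differing base in capitals.
Hspa1a, around position 156: gagcgcctcatcggAgacgccgccaagaa
Hspa1b, around position 156: gagcgcctcatcggGgacgccgccaagaa
Hspa1a, around position 795: cggcggctgcgcacTgcgtgtgagagggc
Hspa1b, around position 795: cggcggctgcgcacGgcgtgtgagagggc

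Scaled to its unique positions, Hspa1b would have 76.9 RPKM in the library labelled colon and 35.9 in lung. The 7 immediate-early genes, which include Fos, Jun and Egr1 and rise within minutes of tissue handling, summed to 65.6 RPKM in the library labelled colon, 331 in lung, 325 in that labelled brain and 73.6 to 155 in the rest. Their part in the values of Hspa1b was not tested.

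The 4 mitochondrial members were high in heart and in the library labelled colon, the one with kidney markers. Each library was at least 2-fold above the median of the other 5 for 3 of the 4, against 20.1% and 23.2% of all mRNAs. Hspa9 (mortalin), the Hsp70 that pulls proteins into the matrix, had 212 RPKM in the library labelled brain, 324 in colon, 535 in heart, 123 in kidney, 172 in lung and 79.4 in small intestine. Hspd1 (Hsp60) had 61.9, 287, 213, 45.3, 71.9 and 61.6 RPKM in that order, and Trap1, the mitochondrial Hsp90, had 14.6, 25.9, 31.2, 9.15, 6.84 and 9.14.

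Heart was thus the highest library for Hspa9 and Trap1 and the library labelled colon for Hspd1 and Hspe1. Hspa9 over Hspd1 was 1.13 (1.07 to 1.19) in the library labelled colon, 1.29 (1.18 to 1.41) in that labelled small intestine and between 2.39 and 3.42 in the other 4. Hspe1 (Hsp10), the lid of the Hspd1 chamber, had 37.5, 108, 59.5, 15.9, 52.8 and 26.9 RPKM in the same order of libraries. Part of its CDS is not unique among mRNAs and multi-mapped reads were removed, so these values understate it.

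Of the 9 mitochondrial co-chaperones and proteases, 7 were at least 2-fold above the median of the other 5 in heart, against 20.1% of all mRNAs, and 6 in the library labelled colon, against 23.2%. The first count was 5 without the reads on Kri1, against 18.4% of all mRNAs. The 1 gene at least 2-fold below in heart, named after its values were seen, was Grpel2, a second exchange factor, with 11.6 RPKM there and 132 in the library labelled brain. Grpel1, the nucleotide exchange factor of Hspa9, ran from 2.46 RPKM in the library labelled brain to 252 in heart, and Hscb, the J-domain protein of iron-sulfur cluster assembly, from 0 reads in that labelled brain to 75.9 RPKM in that labelled colon. Mitochondrially encoded mRNAs took 5.31% of reads in heart, 2.53% in the library labelled colon and 0.870% to 3.50% in the rest, and their part in the chaperone values was not tested.

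The CCT subunits assemble in equal numbers into 1 double ring, so their densities can be set beside each other within a library. All their 28-base positions are unique. The highest subunit exceeded the lowest by 4.97-fold (95% exact interval 4.33 to 5.72) in the library labelled kidney, 5.21-fold (4.74 to 5.73) in lung, 5.70-fold (5.21 to 6.24) in that labelled brain, 5.85-fold (5.11 to 6.72) in that labelled colon, 6.29-fold (5.72 to 6.93) in heart and 10.5-fold (9.17 to 12.0) in that labelled small intestine. The coefficient of variation over the 8 subunits was between 48.2% and 74.8%. The lowest was Cct2 or Cct6a in every library, and these took the bottom places in all 6. Cct2 had between 0.216 and 0.371 of the mean of the 8 and Cct6a between 0.297 and 0.463. Cct3 and Cct7 were above the mean in all 6 libraries, at 1.18 to 1.95 and 1.33 to 1.93 times the mean. Cct5 and Cct8 were below the mean in all 6.

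**Figure D5:**
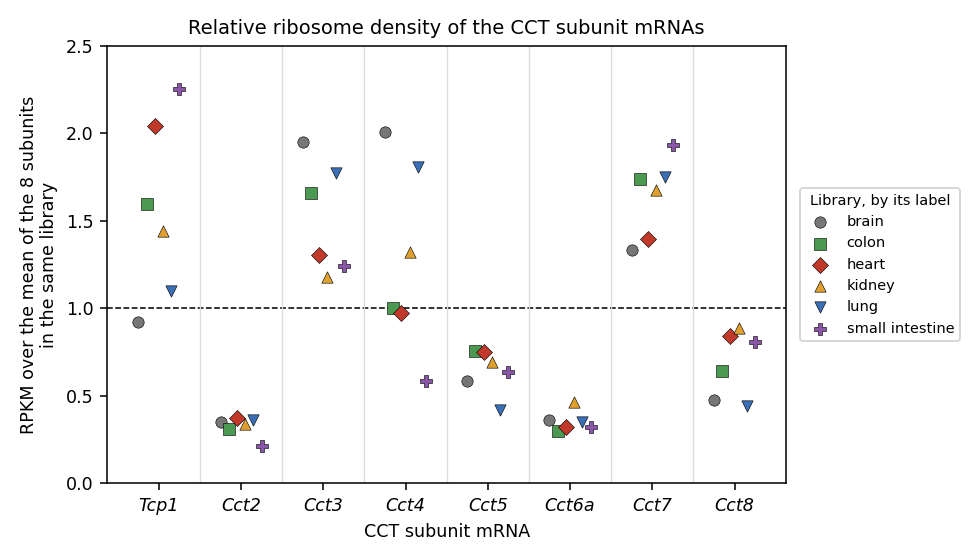
RPKM of each CCT subunit mRNA divided by the mean of the 8 subunits in the same library, with 1 point per library and a dashed line at the mean. Cct2 and Cct6a stay below 0.5 in all 6 libraries, Cct3 and Cct7 stay above 1, and Tcp1 and Cct4 cross the line.

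The highest subunit by value was Cct4 in the library labelled brain and in lung, Tcp1 in heart and the library labelled small intestine, and Cct7 in those labelled colon and kidney. The 95% Poisson intervals of the leading subunits overlapped in the library labelled brain (Cct4 and Cct3) and in lung (Cct4, Cct3 and Cct7). The same held in that labelled colon (Cct7, Cct3 and Tcp1). Overlap of separate intervals does not show equal levels, and the order of these subunits was not tested. Cct4 had 187 RPKM in the library labelled brain, 117 in colon, 114 in heart, 79.2 in kidney, 222 in lung and 53.9 in small intestine. Tcp1 had 85.8, 186, 239, 86.5, 134 and 207 RPKM in that order. Cct4 thus ran from 0.587 to 2.01 times the mean and Tcp1 from 0.923 to 2.26.

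Between libraries the median log2 range of the CCT members was 1.13. Cct3 had 182, 194, 153, 70.8, 217 and 114 RPKM in the same order of libraries. Cct7 had 124, 203, 164, 100.4, 214 and 178 RPKM. Cct4 was the 1 subunit with a range of at least 4-fold, at 2.02 on the log2 scale, and Cct6a had the narrowest, at 0.60, with 33.9, 34.7, 38.0, 27.7, 42.6 and 29.8 RPKM. These 3 show that Cct6a stayed lower than Cct3 and Cct7 in each library. Cct2 had 32.8, 36.0, 43.5, 20.2, 44.0 and 19.8 RPKM. Cct5 had 54.6, 88.4, 87.7, 41.5, 51.1 and 58.5 RPKM, and Cct8 had 44.2, 74.8, 98.4, 53.2, 54.3 and 74.0 RPKM. Cct5 was lowest in the library labelled kidney and Cct8 in that labelled brain. Lung was the highest library for 5 of the 8 subunits, against 26.3% of all mRNAs, but for 0 under median-of-ratios scaling. In RPKM as deposited, all 8 lay below the median of the other 5 in the library labelled kidney, against 6895 of all 13521 mRNAs. That library was the lowest for 4, against 11.8% of all mRNAs, or for 1 without the reads on Kri1.

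Prefoldin and other partners that hand proteins to the ring included 5 of 8 that were lowest in the library labelled kidney, against 11.8% of all mRNAs, but 2 under median-of-ratios scaling and 1 without the reads on Kri1. Vbp1, a prefoldin subunit, ran from 11.7 RPKM there to 101 in lung, and Pfdn6 from 310 in lung to 1699 in the library labelled colon. Of the 6 actin and tubulin genes, the clients of the ring, 5 were at least 2-fold above the median of the other 5 in lung, against 31.5% of all mRNAs. Tubb4a ran from 3.17 RPKM in the library labelled colon to 472 in that labelled small intestine, a range of 6.83 on the log2 scale. Tuba1a ran from 0.328 RPKM in that labelled colon to 54.1 in lung. Both ranges were wider than that of any CCT subunit. Unlike the CCT subunits, these 6 genes were not checked for stretches shared with other mRNAs. Multi-mapped reads were removed, so their values may be understated. The lowest value of both also came from the shallowest library, where 0.328 RPKM stands for few reads.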

How the data were processed

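Ribo-seq was performed by the study on 6 mouse tissues. The deposited files hold RPKM computed by the authors from CDS reads, CDS length and the total of all CDS reads. Per their methods, written for macrophage libraries and taken to hold here, Cutadapt trimmed adapters, reads shorter than 15 nt were discarded, STAR aligned the rest to 1 mRNA per gene in GRCm39, and multi-mapped reads and those with more than 2 mismatches were removed.

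RPKM times CDS length gave whole reads (tolerance 0.01) for 100% of values. Calls used log2(RPKM + 1) after a filter of a mean of at least 1 RPKM, as at least 2-fold from the median of the other 5 libraries or a 4-fold range. An mRNA not listed in a library was taken as 0 reads. An mRNA tied for its lowest value was counted as lowest in a single library. Shares have 95% Wilson intervals, RPKM exact Poisson and ratios exact binomial intervals. Without molecular identifiers, such intervals leave out amplification error. Values in all 6 libraries are given for the 4 members with the largest and the 2 with the smallest range per compartment, all members of small compartments, and Hspa1a and Hspa1b, and of each related list the 2 genes with the largest range are named. Members and lists were chosen with earlier results of these data known. Symbols, positions and shared 28-base stretches came from GENCODE M39 (GRCm39), where the CDS was found for 47 of the 48 members. Read recovery and calls were tested on simulated data. Alternatives covered scaling, pseudocount, filter, depth, reference and left-out libraries. Python 3.11.15, numpy 2.4.6, pandas 2.3.3, scipy 1.17.1 and matplotlib 3.10.9 were used.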

Additional observations from a re-analysis of the deposited data

How the results depend on the processing

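With median-of-ratios scaling, members at least 2-fold above the median of the other 5 numbered 8 instead of 5 in the library labelled kidney and 8 instead of 4 in that labelled small intestine, and those below numbered 6 instead of 3 in lung. In the library labelled kidney the count of ER members above was 6 instead of 3, and of CCT subunits below 1 instead of 2. No CCT subunit (0 instead of 1) then had a 4-fold range. Without the reads on Kri1, members below numbered 8 instead of 13 in the library labelled kidney, where 5 instead of 9 were cytosolic and 1 a CCT subunit, and 5 instead of 3 in lung, ER members above in that labelled kidney numbered 5, and a 4-fold range was reached by 9 ER members instead of 5 and by 0 CCT subunits. Members below in lung numbered 6 with a pseudocount of 0.1 RPKM and 5 with reads thinned to the lowest total, where 0 CCT subunits had a 4-fold range. With a pseudocount of 5 RPKM, members above in the library labelled kidney numbered 3 and CCT subunits with a 4-fold range 0. Against the mean of the other 5, members below numbered 1 instead of 2 in the library labelled colon and 6 in lung, ER members above in that labelled kidney 5 and CCT subunits below there 1. Shares of all mRNAs moved as well. In the library labelled kidney the share above went from 19.3% to 22.4% with median-of-ratios scaling. The share below there went from 17.6% to 12.7% without the reads on Kri1. With median-of-ratios scaling the share above in the library labelled small intestine went from 27.8% to 31.6%, and that below in lung from 19.8% to 25.1%. The share below in lung was 21.5% without the reads on Kri1, 26.8% with a pseudocount of 0.1 RPKM, 19.9% with thinned reads and 26.5% against the mean. The share above in the library labelled kidney was 10.8% with a pseudocount of 5 RPKM. Against the mean, that below in the library labelled colon was 24.5%.

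Leaving out each library in turn gave between 21 and 25 members with a 4-fold range, between 2 and 5 ER members, the fewest without heart, between 7 and 9 cytosolic members, 3 or 4 mitochondrial members and 0 or 1 CCT subunits, the latter 0 without lung or without the library labelled small intestine. All 7 small heat shock proteins reached it each time. The members' share of reads without Kri1 was 2.61% in the library labelled brain, 2.88% in colon, 2.11% in heart, 2.68% in kidney and 2.54% in small intestine. Without mitochondrially encoded mRNAs it was 2.61% in brain, 2.76% in colon, 2.21% in heart, 2.16% in kidney, 2.61% in lung and 2.23% in small intestine. The other 231 of 267 recomputed counts, shares and ratios stayed within 1.5 times the count or within the counting interval. Of the log2 ratios of single members in their highest library, those in lung of Cct3 (0.50), Cct7 (0.38) and Cct6a (0.32) changed sign under median-of-ratios scaling, to -0.12, -0.23 and -0.05, and none of the other ratios recomputed, which cover only part of the members, changed sign.

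No paired analysis was possible because each tissue has 1 library. Depth limits the scarce members, since 3 reads give up to 1.44 RPKM for Hspb3, and with 1 library per tissue the spread between animals is unknown. Alternatives against the lung library alone, and those for counts within 1 compartment or a list of related genes, were chosen after seeing the data.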
